A study of Mus musculus with 24 samples.

Results

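The 4 Sall genes of the mouse, Sall1, Sall2, Sall3 and Sall4, were taken by symbol from the 39017 genes in the count tables and followed over sorted cells of the cerebral cortex at E15.5. The family was chosen by the log2 fold change of Sall4 in the PAX6+ contrast between genotypes, so values of that contrast are descriptions. KO libraries were labelled Emx1Ires-Cre; Prdm16flox/flox, and WT libraries Prdm16 flox/flox, so both genotypes carried the floxed alleles and KO libraries alone carried Cre. Effects of the Emx1 knock-in itself and of Prdm16 loss cannot be told apart here. Emx1-driven Cre acts in the dorsal telencephalic lineage, and other cells in a sort need not recombine. Each genotype was sorted into PAX6+ (radial glia by label), TBR2+ (intermediate progenitors) and PAX6-TBR2- (cortical neurons) fractions, with 4 libraries in each of the 6 groups. The series calls the libraries biological replicates, but the embryos behind them are not named, so p-values measure the spread between these libraries.

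Sall genes encode zinc finger transcription factors related to spalt of Drosophila melanogaster. Their N-terminal end carries a short motif that binds the NuRD complex, which joins histone deacetylases to a nucleosome remodelling ATPase and represses transcription. Mouse Sall1 is known for its need in kidney development, for its presence in cortical progenitors and for marking microglia. Sall3 is closely related to it, Sall2 has been tied to closure of the neural tube, and Sall4 belongs to the pluripotency network of embryonic stem cells.

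All 4 genes lie on the minus strand of GRCm38, the assembly of mm10. Sall1 (ENSMUSG00000031665) spans 89027235 to 89044162 on chromosome 8, Sall2 (ENSMUSG00000049532) 52311172 to 52328762 on chromosome 14 and Sall4 (ENSMUSG00000027547) 168748332 to 168767943 on chromosome 2. The first 36 coding bases of GENCODE M21 transcripts of Sall4 and Sall2 are shown because they encode the N-terminal end, and differ between Sall2 isoforms that the counts per gene cannot resolve. Capitals mark a base that is the same in Sall4-201 at that position.
Sall4-201: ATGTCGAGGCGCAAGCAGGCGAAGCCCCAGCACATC
Sall2-201: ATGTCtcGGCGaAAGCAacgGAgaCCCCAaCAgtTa
Sall2-202: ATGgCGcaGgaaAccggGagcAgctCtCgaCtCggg
Each stretch lies in exon 1 of its transcript, at chr2:168766994-168767029 for Sall4-201, chr14:52328140-52328175 for Sall2-201 and chr14:52316074-52316109 for Sall2-202. Sall2-201 shared 24 of the 36 bases with Sall4-201. Sall2-202 begins at another first exon and shared 13. Reads of the Sall2 transcripts are joined in 1 value, so the values below do not say which start was used.

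Depth was 7.62 to 12.6 M counts per library of PAX6+ cells, and for TBR2+ libraries 6.40 to 8.22 M. Among PAX6-TBR2- libraries it was 4.95 to 8.64 M, except 30.0 M for WT replicate 4. Prdm16 averaged 187 ± 27.2 CPM in KO PAX6+ and 253 ± 34.1 CPM in WT PAX6+ (SD, n = 4 each). The groups overlapped, with KO PAX6+ replicate 1 at 225 CPM and WT PAX6+ replicate 4 at 210 CPM. Prdm16 averaged 52.3 ± 7.96 CPM in KO and 55.6 ± 15.98 CPM in WT TBR2+, and 19.0 ± 7.47 CPM in KO and 25.3 ± 8.35 CPM in WT PAX6-TBR2-. Libraries of the genotypes overlapped in both of these populations as well. CPM is the count scaled to the library total, after TMM scaling over all 24 libraries. The labels do not name the floxed exons, so these counts over the whole gene check the genotype only in part. The summed CPM of 8 radial glia markers was 3235 to 3835 in KO and 2846 to 3321 in WT PAX6+ libraries, against 470 to 712 in KO and 441 to 630 in WT TBR2+ libraries and 235 to 326 in KO and 209 to 333 in WT PAX6-TBR2- libraries. The sum of 7 intermediate progenitor markers was highest in TBR2+ libraries, at 1464 to 1878 CPM in KO and 1663 to 2027 CPM in WT. Neuron markers (10 genes) reached 6357 to 8559 CPM in KO and 6630 to 8270 CPM in WT TBR2+ libraries, below but near the 8582 to 9424 CPM of KO and 8716 to 9983 CPM of WT PAX6-TBR2- libraries. TBR2+ cells thus carried high levels of neuron transcripts beside those of the label. Each population has its own library name prefix, so handling and population cannot be told apart.

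Sall1, Sall2 and Sall3 were all highest in PAX6+ cells and Sall4 was the lowest of the family in that population. Per kilobase of exon, WT PAX6+ cells held 70.4 ± 9.96 CPM of Sall1, 18.8 ± 6.05 of Sall3, 17.1 ± 0.815 of Sall2 and 1.14 ± 0.243 of Sall4 (SD, n = 4). Sall3 and Sall2 did not differ beyond their spread in this order. In WT TBR2+ cells the order was 10.4 ± 2.84 CPM per kilobase for Sall1, 8.59 ± 0.921 for Sall2, 0.617 ± 0.302 for Sall4 and 0.469 ± 0.145 for Sall3, where neither Sall1 and Sall2 nor Sall4 and Sall3 differed beyond their spread. In WT PAX6-TBR2- cells it was 5.04 ± 1.08 for Sall2, 3.99 ± 1.63 for Sall1, 0.946 ± 0.446 for Sall3 and 0.213 ± 0.109 for Sall4, with Sall2 and Sall1 again within their spread. In KO cells Sall4 was the lowest of the 4 in each population, at 0.203 ± 0.162, 0.181 ± 0.0739 and 0.0650 ± 0.0489 CPM per kilobase in PAX6+, TBR2+ and PAX6-TBR2- cells. Sall1 stood at percentile 99.1 of 12805 protein-coding genes ranked by CPM per kilobase in WT PAX6+ cells, and Sall4 at percentile 21.8. The summed level of the 4 genes was 113 ± 12.1 CPM per kilobase in KO PAX6+ and 107 ± 11.1 in WT PAX6+, 23.3 ± 3.35 in KO TBR2+ and 20.1 ± 3.96 in WT TBR2+, and 11.9 ± 2.09 in KO PAX6-TBR2- and 10.2 ± 2.75 in WT PAX6-TBR2- (SD, n = 4 each).

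The make-up of that sum also differed between populations. In WT cells, Sall1 took 65.4 ± 5.23% of the summed CPM per kilobase in PAX6+, 51.1 ± 4.99% in TBR2+ and 38.2 ± 8.51% in PAX6-TBR2-. Sall2 took 16.1 ± 2.00%, 43.7 ± 6.06% and 50.9 ± 10.4% in the same order (SD, n = 4). Sall3 took 17.4 ± 4.87% in WT PAX6+, 2.32 ± 0.411% in WT TBR2+ and 8.88 ± 2.07% in WT PAX6-TBR2-. Sall2 was thus the gene with the larger mean share in PAX6-TBR2- cells and Sall1 in PAX6+ cells, and the ranges of the pair overlapped in WT TBR2+ and WT PAX6-TBR2- cells. The shares of Sall4 in KO and WT were 0.180% and 1.06% in PAX6+, 0.778% and 2.96% in TBR2+, and 0.499% and 2.07% in PAX6-TBR2-.

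**Figure D1:**
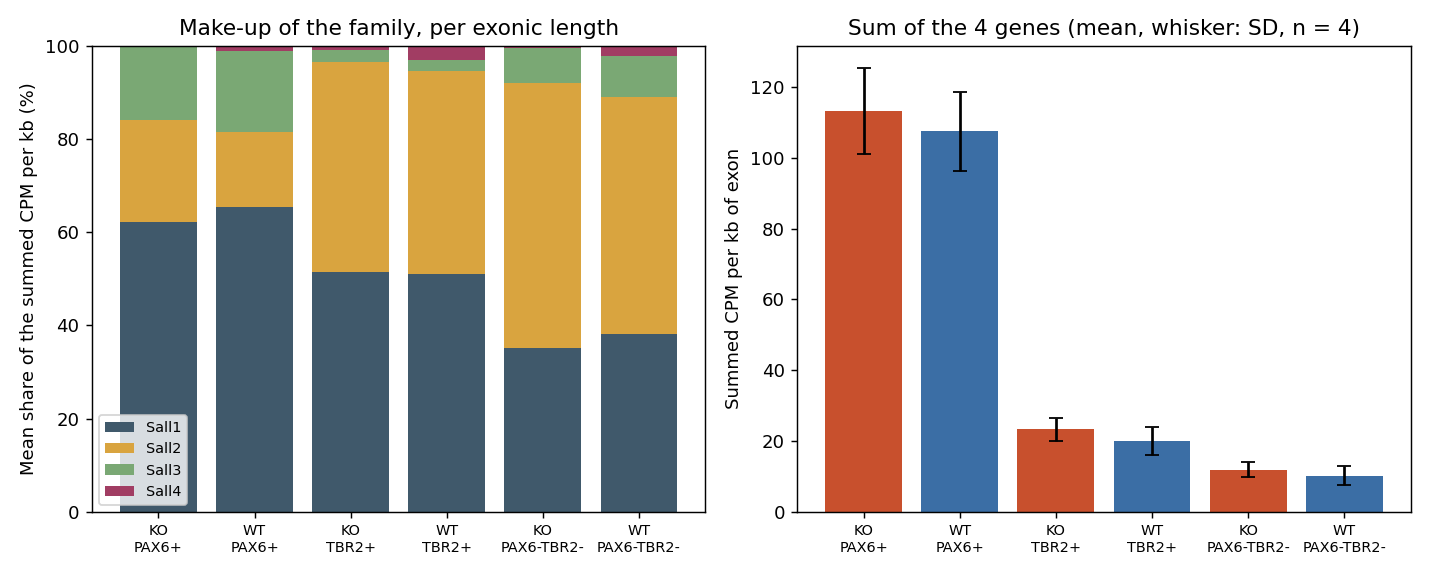
Left, mean share (%) of each gene in the summed CPM per kilobase of exon, by group; right, the summed CPM per kilobase as mean and SD of 4 libraries, KO bars left of WT bars. Sall1 fills 62.2% of the KO and 65.4% of the WT PAX6+ bar, Sall2 57.0% of the KO and 50.9% of the WT PAX6-TBR2- bar, and the sum is 113 and 107 in KO and WT PAX6+ cells.

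Sall1 was highest in PAX6+ cells, where the genotypes differed by less than the spread between libraries. Its levels in KO PAX6+ replicates 1 to 4 were 429, 380, 371 and 306 CPM, against 430, 392, 353 and 308 CPM in WT PAX6+ replicates. The groups covered nearly the same range, and the KO over WT ratio of same-numbered libraries was 0.997, 0.968, 1.05 and 0.995. The log2 fold change was 0.01 (SE 0.12), given without a test because the genes were chosen with results of this contrast known.

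In TBR2+ cells Sall1 was at 78.8, 60.6, 64.2 and 49.6 CPM in KO replicates, against 66.8, 61.9, 56.9 and 33.1 CPM in WT replicates. KO PAX6-TBR2- replicates had 11.5, 31.3, 23.0 and 24.8 CPM, against 11.2, 28.6, 16.4 and 27.8 CPM in WT replicates. The genotypes overlapped in both populations, and replicate 1 was the lowest of both PAX6-TBR2- groups. By edgeR's quasi-likelihood test KO over WT gave a log2 fold change of 0.21 in TBR2+ cells (SE 0.19, 95% interval -0.21 to 0.62, adjusted p = 0.7629) and 0.07 in PAX6-TBR2- cells (SE 0.30, interval -0.56 to 0.71, adjusted p = 0.9709). Without WT replicate 4 the value in TBR2+ cells was 0.02. The direction in PAX6-TBR2- cells was not stable: it was -0.11 without KO replicate 2 or without WT replicate 1, -0.03 without WT replicate 3, and -0.02 on reads recovered from the normalized table.

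Among WT populations Sall1 fell with each step away from radial glia. WT TBR2+ libraries averaged 54.7 ± 14.95 CPM against 371 ± 52.4 CPM in WT PAX6+ libraries (SD, n = 4 each), a 6.70-fold lower level (log2 fold change -2.74, SE 0.17, adjusted p = 3.193e-10 in edgeR). WT PAX6-TBR2- libraries averaged 21.0 ± 8.59 CPM, lower than WT PAX6+ (log2 fold change -4.08, SE 0.23, adjusted p = 3.969e-10) and than WT TBR2+ (-1.33, SE 0.26, adjusted p = 0.0004951). The WT populations did not overlap, as held in the lower direction for 28.5%, 30.5% and 19.7% of 15091 genes in these 3 contrasts. Lower calls were common at these boundaries: 32.2% of the genes tested were called lower in WT TBR2+ than in WT PAX6+, 33.7% in WT PAX6-TBR2- than in WT PAX6+, and 23.4% in WT PAX6-TBR2- than in WT TBR2+. In bulk samples fewer cells of a type and less RNA per cell cannot be told apart, and the radial glia marker sums above move in the same direction; their part in the result was not tested. Since Sall1 also marks microglia, the 11 microglia markers were summed: 1.35 to 3.99 CPM in KO and 1.01 to 2.40 CPM in WT PAX6+ libraries, with 2 of 11 at 0 in KO and 5 of 11 at 0 in WT. Those sums were 0.787 to 3.41 CPM in KO and 2.78 to 5.17 CPM in WT TBR2+ libraries, and 11.03 to 13.2 CPM in KO and 11.9 to 16.6 CPM in WT PAX6-TBR2- libraries; their part in the Sall1 values was not tested.

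**Figure D2:**
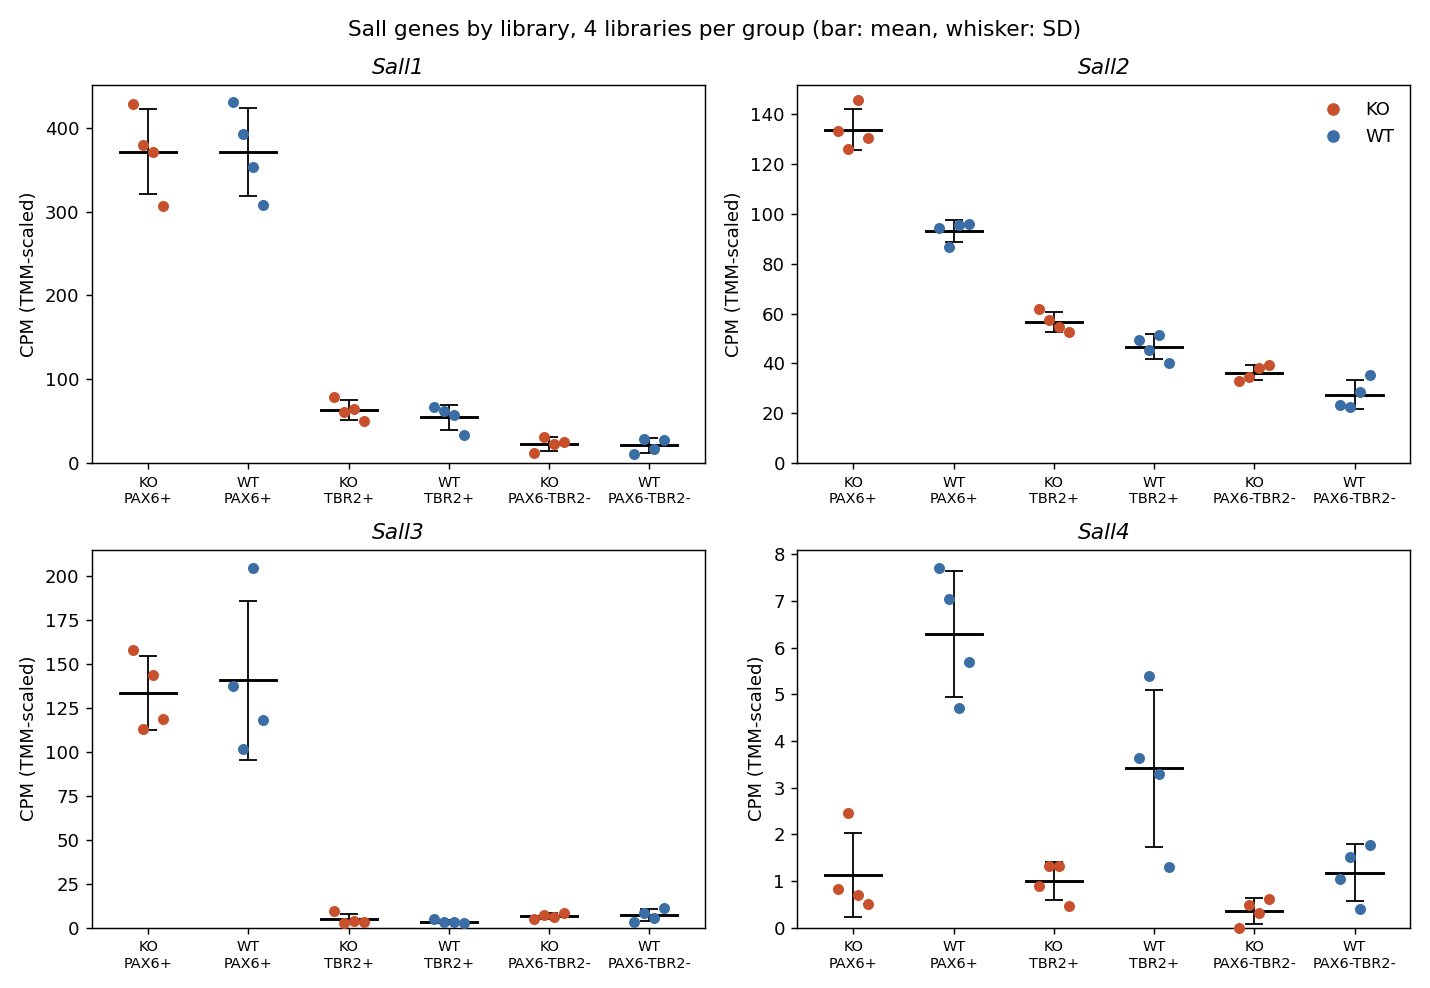
CPM of each Sall gene in every library (points), with the mean (bar) and SD (whisker) of the 4 libraries of a group, KO in red left of WT in blue. Sall1 averages 372 CPM in KO and 371 CPM in WT PAX6+ cells, and Sall4 averages 1.12 CPM in KO and 6.30 CPM in WT PAX6+ cells with no overlap.

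Sall3 (ENSMUSG00000024565; GRCm38 chromosome 18, 80966376 to 80986771) showed the steepest boundary between radial glia and TBR2+ cells of the 3 genes tested there. In PAX6+ cells it was at 158, 113, 144 and 119 CPM in KO replicates, against 138, 102, 205 and 118 CPM in WT replicates. WT replicate 3 was the highest library and WT replicate 2 the lowest, so the KO values lay inside the WT range (log2 fold change -0.07, SE 0.17, no test). Without WT replicate 3 the log2 fold change was 0.16 and without WT replicate 2 it was -0.19. Outside PAX6+ cells the highest library was at 11.05 CPM. WT TBR2+ libraries averaged 3.51 ± 1.08 CPM against 141 ± 45.2 CPM in WT PAX6+ (SD, n = 4 each). That was 39.2-fold lower, a log2 fold change of -5.29 (SE 0.25, adjusted p = 5.678e-12 in edgeR). WT PAX6-TBR2- libraries averaged 7.08 ± 3.34 CPM, also below WT PAX6+ (-4.15, SE 0.28, adjusted p = 2.772e-09).

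Unlike Sall1 and Sall2, Sall3 was higher in WT PAX6-TBR2- than in WT TBR2+ cells. Replicates 1 to 4 had 3.32, 8.30, 5.65 and 11.05 CPM in WT PAX6-TBR2-, against 5.01, 3.43, 3.12 and 2.46 CPM in WT TBR2+. The groups overlapped through WT PAX6-TBR2- replicate 1, which was below WT TBR2+ replicates 1 and 2. The log2 fold change was 1.08 (SE 0.34, adjusted p = 0.01526 in edgeR), where 25.6% of genes tested were called higher. The call was lost without WT PAX6-TBR2- replicate 4, the library of 30.0 M counts (0.73, adjusted p = 0.09996), and with the replicate number as a block (0.99, adjusted p = 0.06676). Over all alternatives its adjusted p ran from 0.0003149 to 0.09996. The sum of 8 interneuron markers was 348, 450, 724 and 953 CPM in WT PAX6-TBR2- replicates 1 to 4, against 5.92, 5.06, 7.89 and 6.72 CPM in WT TBR2+ replicates; its part in the result was not tested.

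The genotype differences of Sall3 outside PAX6+ cells were within the spread. KO TBR2+ replicates had 9.38, 2.82, 3.98 and 3.46 CPM, and the WT TBR2+ values are those above. KO replicate 1 stood above all others and the remaining 3 lay within the WT range. That library also had the highest radial glia marker sum of the TBR2+ libraries, 712 CPM; its part in the result was not tested. The log2 fold change in TBR2+ cells was 0.49 (SE 0.38, 95% interval -0.33 to 1.31, adjusted p = 0.693 in edgeR), and without KO replicate 1 it was -0.06. KO PAX6-TBR2- replicates had 4.81, 7.37, 5.95 and 8.52 CPM, all inside the WT range of 3.32 to 11.05 CPM (-0.16, SE 0.31, interval -0.82 to 0.49, adjusted p = 0.9406), and without WT replicate 4 the log2 fold change was 0.20. A lincRNA gene on the opposite strand, Gm27239, starts 685 bases from Sall3 and had 75 counts in KO PAX6+ and 105 in WT PAX6+ cells against 1 to 5 in each other group.

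Sall2 varied least between WT populations and had a higher mean in KO than in WT cells of all 3 populations. In PAX6+ cells KO replicates had 133, 126, 146 and 130 CPM, against 94.2, 86.5, 95.5 and 96.1 CPM in WT replicates. Every KO library was above every WT library, as held for 4.71% of 15091 genes in this contrast, and the same-numbered ratios, KO over WT, were 1.42, 1.46, 1.53 and 1.36. The log2 fold change was 0.53 (SE 0.09), a description without a test, and ran from 0.49 to 0.56 when 1 library was left out. Radial glia marker sums were also higher in KO PAX6+ libraries, by the ranges above, and overlapped between genotypes; their part in the result was not tested.

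In TBR2+ cells Sall2 was at 61.8, 57.3, 54.8 and 52.5 CPM in KO replicates, against 49.4, 45.6, 51.6 and 40.2 CPM in WT replicates. The lowest KO library, replicate 4, was just above the highest WT library, replicate 3, so the groups did not overlap, as held for 3.63% of 15091 genes. Across all genes the difference did not pass: the log2 fold change was 0.27 (SE 0.11, 95% interval 0.03 to 0.52, unadjusted p = 0.02832, adjusted p = 0.3297 in edgeR). In PAX6-TBR2- cells Sall2 was at 32.9, 34.6, 38.0 and 39.5 CPM in KO replicates, against 23.4, 22.4, 28.5 and 35.2 CPM in WT replicates. WT replicate 4, the deepest library, lay above 2 KO libraries and the other WT libraries below all KO libraries. The log2 fold change was 0.38 (SE 0.15, interval 0.06 to 0.70, unadjusted p = 0.02425), and the adjusted p of 0.6781 in edgeR did not pass. With the replicate number as a block edgeR gave 0.28 in TBR2+ (adjusted p = 0.1878) and 0.40 in PAX6-TBR2- cells (adjusted p = 0.08735).

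Of the 3 genes tested for KO against WT in TBR2+ cells (Sall1, Sall2 and Sall3), 0 were called by edgeR, where 1.76% of 12687 genes were called; 1 of the 3, Sall2, had an unadjusted p under 0.05, as did 12.3% of those genes, and DESeq2 called 0 of these 3. In PAX6-TBR2- cells 0 of the same 3 were called, where 0.00774% of 12928 genes were called, with Sall2 again the 1 with an unadjusted p under 0.05 (6.61% of genes) and 0 called by DESeq2. The difference of the genotype effect between PAX6-TBR2- and TBR2+ cells was 0.10 for Sall2 on the log2 scale (SE 0.19, interval -0.29 to 0.49), -0.14 for Sall1 (SE 0.39) and -0.64 for Sall3 (SE 0.52), each with an adjusted p of 0.9999 in edgeR, where 0.051% of 13725 genes were called. Between WT populations Sall2 fell in smaller steps than Sall1. It averaged 46.7 ± 5.002 CPM in WT TBR2+, against 93.1 ± 4.43 CPM in WT PAX6+ (log2 fold change -0.98, SE 0.10, adjusted p = 2.88e-07). It was also lower in WT PAX6-TBR2- cells (27.4 ± 5.88 CPM) than in WT PAX6+ (-1.72, SE 0.14, adjusted p = 3.045e-08) and than in WT TBR2+ (-0.73, SE 0.15, adjusted p = 0.0008799; SD, n = 4 each).

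**Figure D3:**
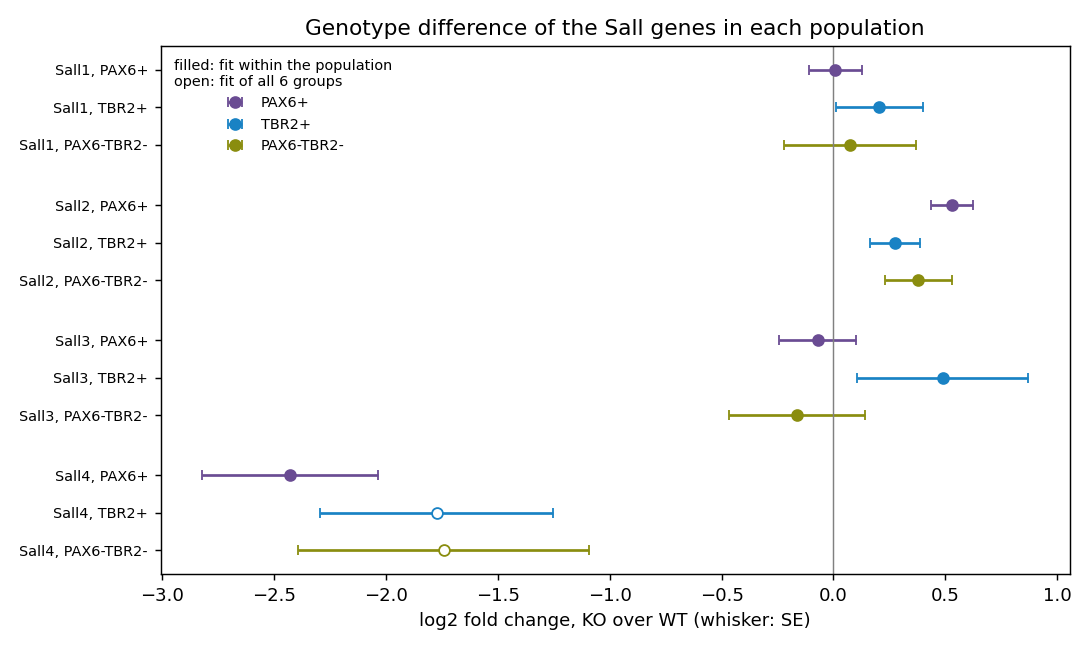
Log2 fold change, KO over WT, of each gene in each population with its SE; filled points come from the edgeR fit within the population and open points, for Sall4 where it missed the low-count filter, from a fit of all 6 groups. Sall2 lies at 0.53, 0.27 and 0.38, and Sall4 at -2.43, -1.77 and -1.74 in PAX6+, TBR2+ and PAX6-TBR2- cells.

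Sall4 was scarce in every group and its mean was lower in KO than in WT cells of all 3 populations. In PAX6+ cells the KO replicates held 8, 32, 8 and 6 counts, or 0.827, 2.45, 0.703 and 0.511 CPM. WT PAX6+ replicates held 88, 103, 75 and 56 counts, or 7.71, 7.05, 4.72 and 5.70 CPM. KO replicate 2 stood apart from the other KO libraries but was below all WT libraries, and the groups did not overlap, as held in that direction for 3.47% of 15091 genes. The log2 fold change was -2.43 (SE 0.39), the value that brought the family into view and therefore a description only. Without KO replicate 2 it was -3.19. That library had the highest share of mitochondrial counts of the PAX6+ libraries, 23.98%, against 11.3% to 17.8% in the other KO and 14.4% to 20.2% in WT PAX6+ libraries; its part in the result was not tested. The same-numbered ratios, KO over WT, were 0.107, 0.348, 0.149 and 0.0896. The sum of 5 meninges markers was 1.23 to 3.30 CPM in KO and 3.36 to 4.73 CPM in WT PAX6+ libraries, with 1 of the 5, Lum, at 0 in both, and 6 Cajal-Retzius markers summed to 16.4 to 95.04 CPM in KO and 33.0 to 296 CPM in WT; their part in the result was not tested.

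TBR2+ cells share no library with that contrast. KO TBR2+ replicates held 6, 8, 7 and 3 counts, or 0.894, 1.33, 1.33 and 0.472 CPM. WT TBR2+ replicates held 24, 33, 18 and 8 counts, or 3.65, 5.39, 3.30 and 1.31 CPM. Of the WT libraries, 3 lay above all KO libraries and WT replicate 4 lay among them. The 11 microglia markers summed to 0.787 to 3.41 CPM in KO and 2.78 to 5.17 CPM in WT TBR2+ libraries, with 4 and 2 of them at 0. Tmem119 among them averaged 0.531 ± 0.136 and 3.04 ± 1.38 CPM in KO and WT (SD, n = 4 each). Csf1r ran the other way, at 1.09 ± 0.760 CPM in KO and 0.690 ± 0.576 CPM in WT. Means of Cx3cr1, P2ry12, C1qa and Aif1 were also higher in KO. Those of C1qb, C1qc, Fcrls and Siglech were lower in KO, and Trem2 was at 0 in both. The share of mitochondrial counts was 30.5% to 39.3% in KO and 24.7% to 33.1% in WT TBR2+ libraries, and Cajal-Retzius markers summed to 378 to 576 CPM in KO and 135 to 548 CPM in WT. Their part in the result was not tested. Sall4 missed the low-count filter in this contrast and so was not tested in the planned fit. An exact two-sided permutation test of the CPM values, added after the data were seen, gave p = 0.08571 for 1.00 ± 0.409 CPM in KO and 3.41 ± 1.67 CPM in WT TBR2+ (SD, n = 4 each; smallest p possible 0.02857). Other fits differed on the call. Without a filter the log2 fold change was -1.78 (SE 0.43, adjusted p = 0.002344 in edgeR, where 0.973% of genes were called lower), and DESeq2 gave -1.80 (adjusted p = 0.03888). On reads recovered from the normalized table edgeR gave -1.93 (adjusted p = 0.03662), while in the fit of all 6 groups it was -1.77 (adjusted p = 0.09365). Without WT replicate 4 the gene passed the filter and the test (-2.04, adjusted p = 0.0194). It passed the filter through the remaining WT libraries, as no KO library held more than 8 counts. Dropping the lowest WT library raises the WT mean in any case, so this fit cannot decide the question. Leaving out each KO library in turn gave adjusted p-values that did not pass. In those fits too the gene passed the filter through WT libraries, so they cannot decide the question either. The adjusted p of all alternatives together ran from 0.002344 to 0.1762.

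In PAX6-TBR2- cells Sall4 was near the detection floor. KO replicates held 0, 3, 2 and 5 counts, or 0, 0.492, 0.322 and 0.627 CPM. WT replicates held 5, 9, 3 and 49 counts, or 1.04, 1.52, 0.394 and 1.76 CPM, the 49 in the deepest library. WT replicate 3 lay within the KO range and the other WT libraries above it. The exact two-sided permutation test gave p = 0.08571 for 0.360 ± 0.270 CPM in KO and 1.18 ± 0.605 CPM in WT (SD, n = 4 each). Without a filter the log2 fold change was -1.74 (adjusted p = 0.4572 in edgeR), and in the fit of all 6 groups the adjusted p was 0.5808. In the joint edgeR fit of PAX6-TBR2- and TBR2+ libraries, where the gene was tested, the genotype effect differed by 0.04 on the log2 scale between the populations (adjusted p = 0.9999). It entered that fit through WT libraries, as no KO library of these populations held more than 8 counts. DESeq2 gave 0.05 with an SE of 0.89. With an SE this wide the value cannot show that the effects were alike.

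Within WT cells Sall4 was lower in PAX6-TBR2- than in TBR2+ cells (1.18 ± 0.605 against 3.41 ± 1.67 CPM; log2 fold change -1.39, SE 0.45, adjusted p = 0.01726 in edgeR), with overlapping groups. It passed the low-count filter mainly through WT TBR2+ libraries, the higher group, so the call is not independent of the filter. Apart from the deepest library, with 49 counts, no WT PAX6-TBR2- library held more than 9. The call was lost without WT TBR2+ replicate 2 (-1.10, adjusted p = 0.07698) and with the replicate block (-1.35, adjusted p = 0.05385), with adjusted p-values of 0.002515 to 0.07698 over all alternatives. Against WT PAX6+ the log2 fold change of WT TBR2+ was -0.86 (SE 0.32) and that of WT PAX6-TBR2- was -2.25 (SE 0.34), both without a test because the WT PAX6+ libraries were part of the known contrast. Gm14261, an opposite-strand gene that shares 526 exonic bases with Sall4, had 8 counts over all 24 libraries and at most 3 in a library. The strand setting of the counting is not known.

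**Figure D4:**
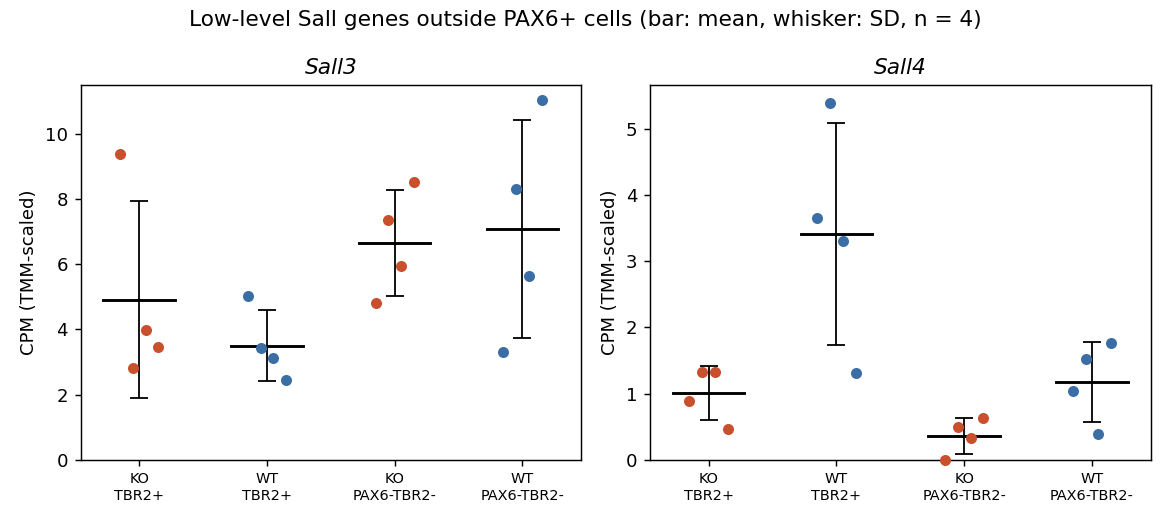
CPM of Sall3 and Sall4 in each TBR2+ and PAX6-TBR2- library (points) with mean (bar) and SD (whisker, n = 4), KO left of WT. KO TBR2+ replicate 1 has the highest TBR2+ value of Sall3, 9.38 CPM, and WT TBR2+ replicate 4 has the lowest WT TBR2+ value of Sall4, 1.31 CPM.

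The NuRD complex, the known partner of the Sall N-terminal motif, was expressed throughout. Its 15 listed genes were all tested in each population, and edgeR called 0 of them for KO against WT in PAX6+, TBR2+ and PAX6-TBR2- cells, against 3.64%, 1.76% and 0.00774% of all genes. Their median log2 fold changes were -0.09, -0.11 and -0.12, against 0.00 over all genes tested in each population, and 13, 11 and 12 of the 15 were below 0. Unadjusted p-values were under 0.05 for 1, 4 and 1 of them, against 12.2%, 12.3% and 6.61% of all genes tested. DESeq2 called 0, 2 and 0 of them, against 650 of 26011, 356 of 24963 and 24 of 25969 genes with a p-value. Those 2 in TBR2+ cells were Mta2, at 157 ± 8.17 CPM in KO and 198 ± 4.62 CPM in WT (log2 fold change -0.34, SE 0.08, adjusted p = 0.05244 in edgeR and 0.00405 in DESeq2), and Mta1, at 105 ± 6.98 CPM in KO and 131 ± 8.53 CPM in WT (-0.33, SE 0.09, adjusted p = 0.1111 in edgeR and 0.0353 in DESeq2; SD, n = 4 each). Both encode subunits that hold the deacetylases in the complex. With the replicate block edgeR called Chd3, a remodelling ATPase, in PAX6+ cells (-0.27, adjusted p = 0.01394), Mta2 in TBR2+ cells (adjusted p = 0.03442) and Mbd3, a scaffold subunit, in PAX6-TBR2- cells (-0.49, adjusted p = 0.04579). That was 1 of the 15 in each population, where the block called 1045 of 14212, 720 of 12687 and 153 of 12928 genes tested. Over all alternatives in those contrasts the adjusted p ran from 0.00405 to 0.1633 for Mta2, 0.0353 to 0.2993 for Mta1, 0.01394 to 0.6754 for Chd3 and 0.04579 to 0.988 for Mbd3. These genes were singled out after their values were seen. The levels of Chd3 ran opposite to those of Sall1: in WT cells they averaged 220 ± 22.4 CPM in PAX6+, 585 ± 69.2 CPM in TBR2+ and 838 ± 71.1 CPM in PAX6-TBR2- (SD, n = 4), a description without a test.

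The pluripotency network that Sall4 belongs to in embryonic stem cells was mostly silent. Of 12 listed genes, Zfp42 and Utf1 had 0 counts in all libraries, and Pou5f1, the gene of OCT4, had 6 counts in the 8 PAX6+ libraries and 1 in the 8 libraries of each other population. Tested were Nanog, Sox2 and Klf4 in PAX6+, Sox2 and Klf4 in TBR2+, and Sox2, Klf4 and Lin28b in PAX6-TBR2- cells. edgeR called 0 in each population, against 3.64%, 1.76% and 0.00774% of all genes tested in PAX6+, TBR2+ and PAX6-TBR2- cells. Unadjusted p-values were under 0.05 for 0, 1 and 0 of them, against 12.2%, 12.3% and 6.61% of all genes tested. DESeq2 called 0, 1 and 0 of them, against 650 of 26011, 356 of 24963 and 24 of 25969 genes with a p-value. The 1 was Sox2, also a gene of neural progenitors, at 43.8 ± 7.91 CPM in KO and 27.2 ± 7.62 CPM in WT TBR2+ cells (SD, n = 4 each). Its log2 fold change was 0.68 (SE 0.19, adjusted p = 0.09451 in edgeR and 0.03063 in DESeq2, with 0.0001436 to 0.2267 over all alternatives).

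For each Sall gene, the genes most like it were ranked by the root mean square difference of the 6 centred group means of log2 CPM, among 15090 candidates. Sall1 was most like Gm2366 (0.14), Rad51b (0.14), a recombination repair gene, and Ajuba (0.15), a LIM domain gene. Sall2 was most like Gm13479 (0.09), Plcb4 (0.11), a phospholipase C gene, and Kdelr3 (0.12), a gene of an endoplasmic reticulum retention receptor. Gm13479 was at 1.14 CPM in KO and 0.833 CPM in WT PAX6+ cells and at 0.0599 to 0.407 CPM elsewhere, near the detection floor. Plcb4 was at 102 CPM in KO and 73.6 CPM in WT PAX6+ cells. Sall3 was most like Pdpn (0.12), Plce1 (0.15) and Ddah1 (0.15). The closest to Sall4 were Gm16565 (0.61), Sytl5 (0.62) and Fam210b (0.63), at larger distances. The means of Sall4 include those of PAX6+ cells, by which the family was chosen. It also held few counts, with 24 summed over KO TBR2+ and 10 over KO PAX6-TBR2- libraries. Its distances therefore cannot be set against those of the other Sall genes.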

How the data were processed

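RNA of sorted cells was amplified with a single-primer isothermal cDNA method before library preparation, per the labels' protocols, without molecular identifiers being named, so counting error is a lower limit. Tools listed in the submitters' processing notes are FastQC, cutadapt, STAR, featureCounts and DESeq2, with the build mm10. Their versions, the annotation and the strandedness of counting were not given in the sources used here. Count tables from the authors give unnormalized counts for each Ensembl identifier, and the 2 lane columns of a library were summed. The deposited normalized tables hold signal values whose steps gave whole reads for 100% of values (tolerance 1e-06). These equalled the raw counts in PAX6+ libraries and were 1.44 to 1.70 times them per group elsewhere, where 1 WT PAX6-TBR2- column equalled a raw library and the deepest column held 60.1 M reads against 30.0 M in the deepest raw library, so raw counts were the main source. GENCODE M21 named 37693 of 39017 genes.

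KO and WT were compared within populations, and WT populations with each other, by edgeR 4.0.16 in R 4.3.3 (filterByExpr with a minimum count of 10, TMM, quasi-likelihood F test, two-sided, Benjamini-Hochberg over all genes tested, called at adjusted p under 0.05). SE is the log2 fold change divided by the square root of F. On simulated data for TBR2+ cells with 12493 genes the test recovered 67.7% of log2 changes of 1 and 94.9% of changes of 2. Chi-square per degree of freedom of the 36 pairs of libraries of a group was 5.65 to 45.5, so each counted as 1 replicate. Same-numbered KO and WT libraries deviated together in all 4 PAX6+ pairs (r 0.154 to 0.326), and unlike numbers reached at most 0.0741. This counts as paired by the data. In TBR2+ (0.0402 to 0.314) and PAX6-TBR2- (0.0621 to 0.26) same-numbered r was also positive, but unlike numbers reached 0.108 and 0.139. Among WT populations same-numbered r was -0.132 to 0.129. The main fits had no pairing term in any population, so their PAX6+ values leave this pairing out. With the replicate block in PAX6+ cells the SE was 0.06 for Sall1, 0.07 for Sall2, 0.09 for Sall3 and 0.33 for Sall4. DESeq2 1.42.0, DESeq2 size factors, no filter, the replicate block, all 6 groups in 1 fit, recovered reads and leaving out each library were alternatives. Exact permutation tests used scipy 1.17.1. Named were the 4 Sall genes, Prdm16, called genes of the lists, and the 3 genes of nearest pattern (prior count 2). The members and lists were chosen with earlier results of these data known.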

Additional observations from a re-analysis of the deposited data

Results flagged for a closer look

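Sall4 in KO PAX6+ replicate 2, at 2.45 CPM from 32 counts, was far above the 0.511 to 0.827 CPM of the other 3 KO PAX6+ libraries: its gap to the nearest of them was 0.837 of the group's range, over Dixon's 95% critical value for 4 values. It was still below the lowest WT PAX6+ library, at 4.72 CPM. The same library had 23.98% mitochondrial counts, against 11.3% to 17.8% in the other KO PAX6+ libraries. Of 24 sets of 4 values checked (4 genes in 6 groups) this was the 1 past that value, and chance alone flags about 1 set in 20.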

How the results depend on the processing

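Of 638 values recomputed under alternatives, 599 kept their direction and side of the threshold or stayed within the spread. In all, 30 log2 differences changed sign: 17 with a test, none of them called, and 13 without a test. Calls of Sall1, Sall2 and Sall3 between WT PAX6+ and the other WT populations held in every alternative run. The replicate block gave 0.99 for Sall3 and -1.35 for Sall4 in WT PAX6-TBR2- minus WT TBR2+, ending both calls. Sall4 in TBR2+ was -1.78 without a filter, -1.80 in DESeq2 and -1.93 on recovered reads, each past the threshold. Sall1 in PAX6-TBR2- was -0.0161 on recovered reads. NuRD genes called with the block were 1 in each of PAX6+ (1045 of 14212 genes in all), TBR2+ (720 of 12687) and PAX6-TBR2- (153 of 12928). In TBR2+ they were 2 in DESeq2 (356 of 24963 genes in all) and 1 on recovered reads (232 of 13483). Pluripotency genes called in TBR2+ were 1 without a filter (728 of 24963 genes in all), and 1 in DESeq2 and with the block, with the shares just given. Leaving out a library gave 0 to 1, where 121 to 420 genes were called in all. Genes called in all numbered 223 in TBR2+ (728 without a filter, 356 in DESeq2, 720 with the block, 121 without WT replicate 3 to 420 without KO replicate 1), 517 in PAX6+ (1045 with the block) and 1 in PAX6-TBR2- (38, 24 and 153; 6 with all groups).

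Leaving out 1 library gave these ranges of KO minus WT: in PAX6+ Sall4 -3.19 to -2.18, Sall3 -0.19 to 0.16 and Sall1 -0.07 to 0.09; in TBR2+ Sall1 0.02 to 0.32, Sall4 -2.04 to -1.53 (5 fits kept the gene) and Sall3 -0.0609 to 0.72; in PAX6-TBR2- Sall3 -0.36 to 0.20 and Sall1 -0.11 to 0.29. In WT PAX6-TBR2- minus WT TBR2+ it gave 0.73 to 1.31 for Sall3 and -1.82 to -1.10 for Sall4. The PAX6-TBR2- minus TBR2+ difference of KO effects ran from -0.33 to 0.0758 for Sall1 and from -0.40 to 0.46 for Sall4. Against the KO effect in PAX6+, that in TBR2+ differed by 0.00498 to 0.81 for Sall3 and 0.38 to 1.41 for Sall4, and that in PAX6-TBR2- by -0.25 to 0.0276 for Sall2 and 0.21 to 1.45 for Sall4. With all libraries these were 0.57 and 0.65 in TBR2+, and -0.15 and 0.68 in PAX6-TBR2-. They hold the PAX6+ contrast by which the family was chosen, so they are descriptions without a test. The cause of the changes on leaving out a library was not tested. Sall4 is limited by depth: 3 counts in KO PAX6-TBR2- replicate 1 would be 0.466 CPM after TMM scaling, where 0 were seen.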
